A study of Cavia porcellus with 10 samples.

Results

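The genes described here encode the proteasome: the subunits of its core particle and of its regulatory particle, its activators, an inhibitor, and the chaperones that assemble it. They were taken from a table of read counts by symbol, as every row whose name begins with PSMA, PSMB, PSMC, PSMD, PSME, PSMF or PSMG and a digit, leaving out the interferon-induced PSMB8, PSMB9 and PSMB10. The rule matched 47 rows with 46 symbols of the 17642 rows that carry a symbol; PSMC6 stood on 2 rows, of which the one with more counts was used. It also took PSMC3IP and PSME3IP1, which are named for binding a proteasome protein and are not subunits, so those 2 are given apart. PSMB11, the core subunit of the thymus, had 0 counts in each of the 10 libraries, which allows at most 3 counts, or between 0.0735 and 0.118 CPM, per library. The other 45 genes passed the filter on low counts.

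The proteasome is the barrel-shaped protease that degrades proteins tagged with ubiquitin. Its core, the 20S particle, is a stack of rings: outer rings of alpha subunits, which form the gate, and inner rings of beta subunits, of which PSMB5, PSMB6 and PSMB7 carry the active sites. The 19S regulatory particle caps the core. Its base holds a ring of ATPases (PSMC genes) that unfold the substrate, and its lid (part of the PSMD genes) removes the ubiquitin. Other PSMD genes encode further subunits of the base or chaperones that help it assemble. In connective tissue the proteasome turns over signalling proteins, misfolded secretory proteins sent back from the endoplasmic reticulum, and the hypoxia factor HIF1A.

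The tissue was whole sclera, the tough fibrous wall of the eyeball, and the animals were male guinea pigs (Cavia porcellus) that were 2 to 3 weeks old. Untreated animals (control, 5 libraries) were compared with animals in which lenses on both eyes induced myopia (5 libraries). Each library came from 1 eye. Eyes are not tied to animals in the labels, so a p-value reflects how these libraries vary, which can be less than animals do. Total counts lay between 32309258 and 35430797 per library.

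The scleral fibroblast genes COL1A1, COL1A2, COL3A1, DCN, LUM, BGN, FMOD, THY1 and PDGFRA were present, summing to between 129551 and 166143 CPM in control and between 72804 and 99990 CPM in myopia (2 rose and 5 fell). Markers of other cells differed between the groups too. Red blood cell genes (4 of 4 lower) summed to 2504 to 10560 CPM in control and 100.1 to 456 CPM in myopia, and leukocyte genes (4 of 5 lower, 1 higher) to 170.3 to 269 and 72.0 to 102 CPM. CD14, CD68, SPI1 and FCER1G fell, while PTPRC rose from 8.65 ± 2.46 to 20.5 ± 3.53 CPM (mean ± SD, n = 5). The leukocyte sum therefore does not speak for leukocytes as a whole. Skeletal muscle genes (3 of 6 lower) summed to 2306 to 5502 and 1511 to 3378 CPM, photoreceptor genes (4 of 5 lower) to 181 to 331 and 30.7 to 188 CPM, pigment cell genes (3 of 6 lower, 1 higher) to 135 to 420.5 and 41.5 to 195 CPM, and endothelial genes (1 of 4 lower, 1 higher) to 822 to 1025 and 612 to 988 CPM. In whole tissue, fewer cells of a type and less RNA per cell cannot be told apart, and the part of these cells in the results below was not tested.

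Most proteasome genes were lower in the myopic sclera, and 7 were higher. By edgeR's quasi-likelihood test, Benjamini-Hochberg adjusted over all 14683 genes with a threshold of 0.05, 34 of the 45 tested genes fell (75.6%), 7 rose (15.6%) and 4 did not pass. Over all genes tested, 35.1% were called lower and 36.9% higher (71.9% in either direction), so a call as such was common in these libraries, and the members' share of calls toward lower was above that of all genes and their share toward higher below it. Their median log2 fold change was -0.69, beside 0.03 over all genes, and the values ran from -1.83 (PSMG4) to 1.98 (PSMD10). Falls of at least 2-fold were called for 13 of 45 members (28.9%; 12.6% of all genes), and rises of that size for 2 (4.44%; 19.6% of all genes). Without PSMC3IP and PSME3IP1, 32 of 43 fell.

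The libraries of the groups did not overlap for 30 members that were lower in myopia and for 5 that were higher; over all genes tested these shares were 28% and 29.8% (57.8% in either direction). Relative to the control mean, the median of the 45 genes stood between -0.24 and 0.15 on the log2 CPM scale in control libraries and between -0.81 and -0.53 in myopia libraries. The 46 genes together took up 0.372% ± 0.0167 of control counts and 0.308% ± 0.0128 of myopia counts (mean ± SD, n = 5). This share uses no TMM factors and amounts to scaling by total count, so it is not free of the choice of scaling. CPM values below are scaled with TMM factors (control 0.777 to 0.968, myopia 1.11 to 1.25). With scaling by total count instead, the median of all genes moved up by 0.45, and of the 45 members 22 were called lower and 11 higher, with a median of -0.24. Of all genes, 18.7% were called lower and 52% higher with that scaling. The lowest member values were then -1.37 (PSMG4), -0.99 (PSMB3) and -0.92 (PSMA7). Of the falls of at least 2-fold given above, only that of PSMG4 thus kept that size. PSMC6 (1.36) and PSMD5 (1.19) then rose by more than 2-fold as well. The share of all genes with such changes was not computed for that scaling. The distance between the members' median and that of all genes was -0.72 with TMM factors and -0.71 with total count. A change of scaling moves both medians by nearly the same amount, so this distance is no check on the choice of scaling.

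Of the 41 members called, 28 kept direction and call under each of 20 other settings, and 39 under each of them except total count. The 7 that rose also rose with total count, but that scaling moved the median of all genes up, so it was no check on rises. Among the 7, PSMA3 lost its call without myopia 3 and with a block for replicate number.

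**Figure D1:**
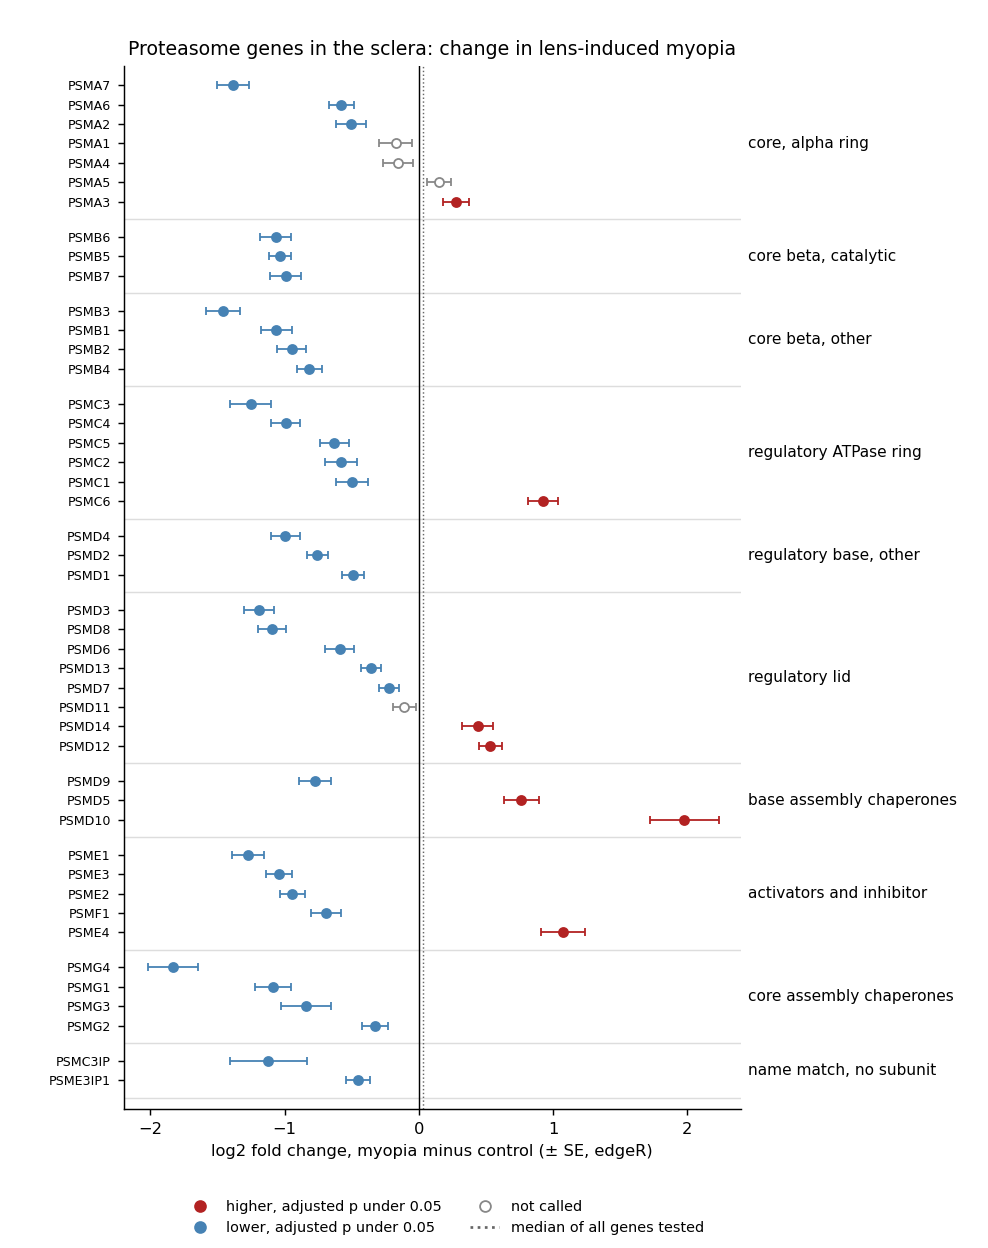
Log2 fold change (myopia minus control, edgeR, bars ± SE, n = 5 libraries per group) of each tested gene, grouped by role; filled points passed the test and the dotted line is the median of all genes tested. The beta subunits lie between -1.46 and -0.82, while the alpha ring, the ATPase ring, the lid and the chaperones of the base each hold genes on both sides of 0.

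The 3 catalytic subunits fell together. PSMB5, which carries the chymotrypsin-like site, stood at 126, 133, 121, 115 and 112 CPM in control libraries 1 to 5 and at 59.6, 52.2, 61.6, 62.1 and 60.3 CPM in myopia libraries 1 to 5. The lowest control lay far above the highest myopia library, and the log2 fold change was -1.04 ± 0.08 (SE, adjusted p = 4.21e-07). PSMB6, with the caspase-like site, stood at 136, 137, 136, 114 and 90.6 CPM in control and 57.7, 59.5, 60.4, 55.5 and 60.2 CPM in myopia. Control libraries 4 and 5 were the lowest controls and still above every myopia library (-1.07 ± 0.11, adjusted p = 2.52e-06). PSMB7, with the trypsin-like site, stood at 153, 154, 142, 116 and 107 CPM in control and 60.3, 71.6, 72.7, 64.4 and 69.0 CPM in myopia. Again controls 4 and 5 were the lowest of the control group without reaching the myopia libraries (-0.99 ± 0.11, adjusted p = 4.63e-06). The median of the 3 was -1.04, and -0.58 with scaling by total count.

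The structural beta subunits PSMB1, PSMB2, PSMB3 and PSMB4 fell as well, with no overlap between the groups for any of the 4. PSMB3 had the smallest p among them, with 149.7, 131, 132, 108 and 88.4 CPM in control and 44.7, 40.0, 44.9, 45.5 and 46.3 CPM in myopia. The myopia libraries lay close together, and the fall was 2.75-fold (-1.46 ± 0.13, adjusted p = 6.9e-07). PSMB1 fell from 153 ± 20.6 to 73.4 ± 8.87 CPM, PSMB2 from 57.4 ± 8.01 to 29.8 ± 2.63 CPM and PSMB4 from 204 ± 22.9 to 116 ± 6.74 CPM (mean ± SD, n = 5). Their log2 fold changes were -1.06 ± 0.11, -0.95 ± 0.11 and -0.82 ± 0.09 (SE).

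The alpha ring did not move as 1 unit: of 7 genes 3 fell, 1 rose and 3 did not pass, and its median of -0.17 became 0.27 with scaling by total count. PSMA7 fell furthest, with 344, 315, 316, 251 and 224 CPM in control and 101, 115, 118, 106 and 115 CPM in myopia. Every myopia library lay well below every control, a 2.61-fold fall (-1.38 ± 0.12, adjusted p = 6.94e-07). PSMA3 moved the other way, with 68.2, 63.7, 66.0, 74.0 and 70.0 CPM in control and 73.7, 87.7, 97.2, 70.7 and 85.4 CPM in myopia. Myopia libraries 1 and 4 lay among the controls, so the groups overlapped, and the rise was small (0.28 ± 0.10, adjusted p = 0.0191). It did not pass without myopia 3 (0.22, adjusted p = 0.0566).

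PSMA6 fell from 80.1 ± 6.43 to 53.7 ± 5.71 CPM (-0.58 ± 0.09) and PSMA2 from 107 ± 11.2 to 75.8 ± 10.9 CPM (-0.50 ± 0.11; mean ± SD and SE, n = 5). Neither passed with scaling by total count, with -0.13 for PSMA6 (adjusted p = 0.18) and -0.05 for PSMA2 (adjusted p = 0.607). PSMA1 stood at 66.9, 76.3, 65.5, 76.1 and 69.4 CPM in control and 50.9, 71.4, 76.0, 49.8 and 66.1 CPM in myopia, and PSMA4 at 74.9, 63.1, 70.7, 62.4 and 61.0 and 51.9, 67.4, 67.5, 47.5 and 63.8 CPM. For both, myopia libraries 2, 3 and 5 lay in the control range and libraries 1 and 4 below it. Their log2 fold changes of -0.17 ± 0.12 and -0.15 ± 0.11 did not pass (adjusted p = 0.216 and 0.232) and became 0.27 (adjusted p = 0.0667) and 0.29 (adjusted p = 0.0162) with scaling by total count. PSMA5, at 41.5 ± 2.78 and 46.1 ± 4.78 CPM, had 0.15 ± 0.09 (adjusted p = 0.151); it passed as higher with upper-quartile factors (0.22, adjusted p = 0.0343) and with total count (0.60, adjusted p = 6.61e-05).

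The make-up of each ring's counts, which needs no scaling between libraries, shows the same unevenness. PSMA7 held 43.0%, 41.4%, 41.9%, 37.0% and 35.6% of the counts of the 7 alpha genes in control libraries 1 to 5, and 23.5%, 21.6%, 21.2%, 24.7% and 22.5% in myopia. PSMA3 went from 9.54% ± 1.37 to 16.8% ± 0.423 and PSMA5 from 5.76% ± 0.477 to 9.39% ± 0.294 (mean ± SD, n = 5). Shares of PSMA1, PSMA3, PSMA4 and PSMA5 were higher in every myopia library than in any control, that of PSMA7 was lower, and those of PSMA2 and PSMA6 overlapped. In the beta ring the shares of PSMB1, PSMB2, PSMB5, PSMB6 and PSMB7 overlapped between the groups. There PSMB3 went from 13.2% ± 1.04 to 9.89% ± 0.78 and PSMB4 from 22.3% ± 0.640 to 25.8% ± 0.422. These shares compare a gene with itself across libraries; without transcript lengths they do not rank the genes of a ring. The shares of a ring sum to a fixed total, so the drop of PSMA7 by itself raises the others. PSMA1 and PSMA4 took larger shares although their log2 fold changes were -0.17 and -0.15 and did not pass. The same limit holds for the shares in the ATPase ring, the lid and the base chaperones below.

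**Figure D2:**
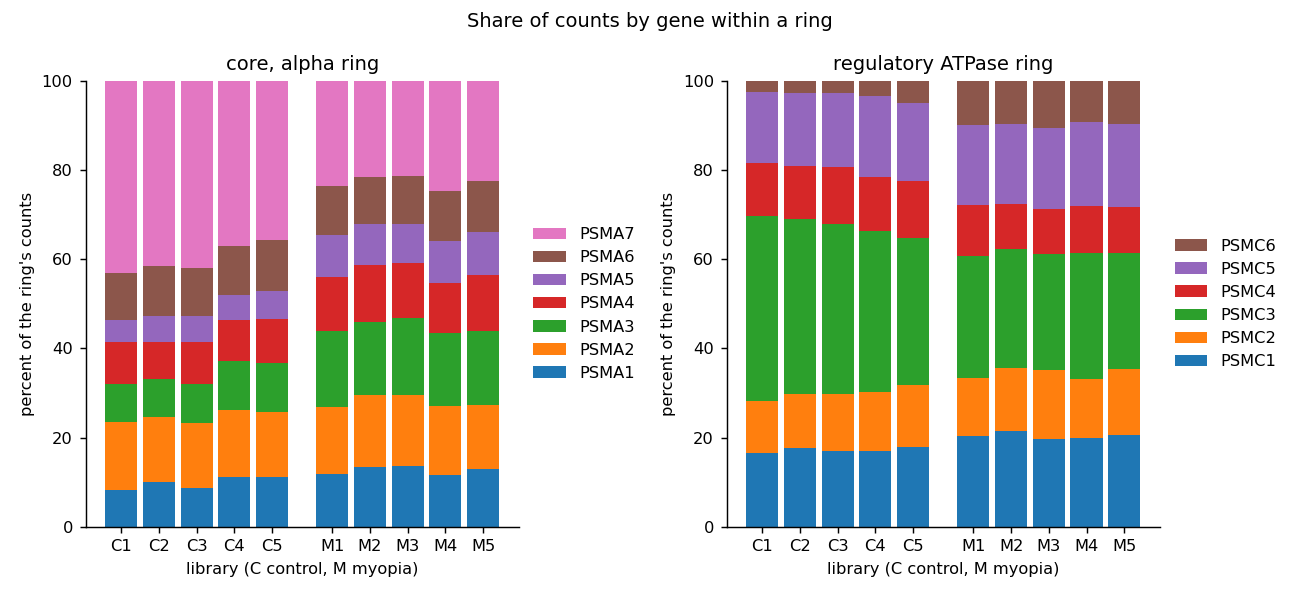
Share of a ring's counts (percent, vertical axis) held by each gene in each library (horizontal axis), for the 7 genes of the alpha ring and the 6 of the ATPase ring. PSMA7 and PSMC3 take smaller shares in the 5 myopia libraries than in any of the 5 control libraries, and PSMA3 and PSMC6 larger ones.

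In the ATPase ring, 5 of 6 genes fell and PSMC6 rose. PSMC4 had the smallest p, at 106, 104, 108, 86.6 and 74.4 CPM in control and 47.2, 50.1, 50.2, 43.6 and 49.6 CPM in myopia. No myopia library came near the lowest control, library 5 (-0.99 ± 0.11, adjusted p = 3.24e-06). PSMC3 fell further but varied more among controls, with 369, 345, 324, 253 and 192 CPM there and 113, 133, 131, 119 and 126 CPM in myopia. Control 5 lay nearest to the myopia libraries (-1.25 ± 0.15, adjusted p = 8.63e-06).

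PSMC6 stood at 21.1, 23.2, 22.8, 23.9 and 29.0 CPM in control and 41.1, 48.2, 53.3, 38.4 and 46.8 CPM in myopia. Its highest control, library 5, lay below its lowest myopia library, a 1.90-fold rise (0.92 ± 0.11, adjusted p = 8.44e-06). The second row with this symbol, with 13 to 37 counts in control and 75 to 121 in myopia, also rose (1.71 ± 0.33, adjusted p = 0.000364), and the table does not say how the rows differ. The share of ATPase-ring counts held by PSMC6 went from 3.22% ± 1.05 to 9.80% ± 0.536, and that of PSMC3 from 37.6% ± 3.27 to 26.9% ± 0.989. PSMC5 (-0.63 ± 0.11), PSMC2 (-0.58 ± 0.12) and PSMC1 (-0.50 ± 0.12) fell; PSMC1 overlapped between the groups. With scaling by total count these 3 did not pass (-0.17, -0.13 and -0.04; adjusted p = 0.0791, 0.262 and 0.696).

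The 3 other subunits of the base fell. PSMD2, the large scaffold on which ubiquitin shuttles dock, stood at 186, 215, 214, 201 and 192 CPM in control and 126, 119, 117, 122 and 112 CPM in myopia. Controls 4 and 5 lay within the range of controls 1 to 3 here, and the groups did not overlap (-0.76 ± 0.08, adjusted p = 2.09e-06). PSMD4, a ubiquitin receptor, fell from 117 ± 19.1 to 58.7 ± 3.53 CPM (-0.99 ± 0.11). PSMD1 fell from 91.0 ± 8.64 to 64.7 ± 3.37 CPM (-0.49 ± 0.09), a change of -0.03 that did not pass with scaling by total count (adjusted p = 0.69).

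Of 8 lid genes, 5 fell, 2 rose and 1 did not pass; the median was -0.29, and 0.16 with scaling by total count. PSMD3 had the smallest p, with 206, 205, 201, 172 and 143 CPM in control and 88.9, 84.1, 71.2, 80.8 and 80.3 CPM in myopia. Each myopia library was far below each control (-1.19 ± 0.11, adjusted p = 1.09e-06). PSMD8 fell from 147 ± 19.7 to 68.9 ± 5.28 CPM (-1.09 ± 0.10). These 2 were the lid genes with falls of more than 2-fold.

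PSMD12, a scaffold subunit of the lid, rose. It stood at 54.1, 60.4, 57.4, 66.0 and 67.5 CPM in control and 91.1, 89.0, 95.6, 83.2 and 82.2 CPM in myopia, with the lowest myopia library above the highest control (0.53 ± 0.09, adjusted p = 9.26e-05). PSMD14, the deubiquitinating enzyme of the lid, stood at 21.0, 23.1, 21.9, 24.9 and 30.4 CPM in control and 29.5, 34.9, 38.4, 30.0 and 31.5 CPM in myopia. Control 5 lay above myopia libraries 1 and 4, so the groups overlapped (0.44 ± 0.12, adjusted p = 0.00432). In the lid's counts the share of PSMD12 went from 8.59% ± 1.48 to 17.3% ± 0.778, and that of PSMD3 from 25.7% ± 1.93 to 15.9% ± 1.68.

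The other lid genes changed little or lost their call with other scaling. PSMD6 fell from 82.1 ± 7.51 to 54.6 ± 7.50 CPM (-0.59 ± 0.11), which became -0.14 with total count (adjusted p = 0.165). PSMD13 fell from 83.5 ± 3.66 to 65.2 ± 4.56 CPM (-0.36 ± 0.08), a direction that turned with total count (0.092, adjusted p = 0.289). PSMD7, at 64.8 ± 4.38 and 55.7 ± 2.11 CPM, was called lower (-0.22 ± 0.08, adjusted p = 0.0186), but passed as higher with total count (0.23, adjusted p = 0.0102). The call on PSMD7 also ended with upper-quartile factors (-0.15, adjusted p = 0.0737), without control 1 (-0.18, adjusted p = 0.0594) and without control 4 (-0.19, adjusted p = 0.0602). PSMD11, at 70.3 ± 7.19 and 65.1 ± 2.43 CPM, did not pass (-0.11 ± 0.09, adjusted p = 0.259), passed as higher with total count (0.35, adjusted p = 0.00041), and passed as lower without control libraries 4 and 5 (-0.19, adjusted p = 0.0296).

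The chaperones that help the base assemble moved in opposite directions. PSMD10 (gankyrin), which is also known as an oncoprotein that binds MDM2 and RB1, stood at 2.49, 4.19, 4.37, 7.15 and 8.38 CPM in control and 20.1, 22.2, 23.5, 19.4 and 20.1 CPM in myopia. In control it had few counts, 63 to 261 per library. It had the highest fold change of the 45 genes, a 3.94-fold rise, with controls 4 and 5 the highest controls (1.98 ± 0.26, adjusted p = 1.5e-05). PSMD5 stood at 9.98, 10.2, 11.6, 14.3 and 14.2 CPM in control and 19.98, 21.5, 21.5, 17.2 and 22.2 CPM in myopia, without overlap (0.76 ± 0.13, adjusted p = 0.000155). PSMD9 fell from 52.6 ± 9.43 to 30.8 ± 2.07 CPM (-0.77 ± 0.12). Of the counts of these 3 genes, PSMD9 held 74.7% ± 8.04 in control and 42.6% ± 2.84 in myopia, and PSMD10 held 7.82% ± 4.01 and 29.1% ± 1.95.

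**Figure D3:**
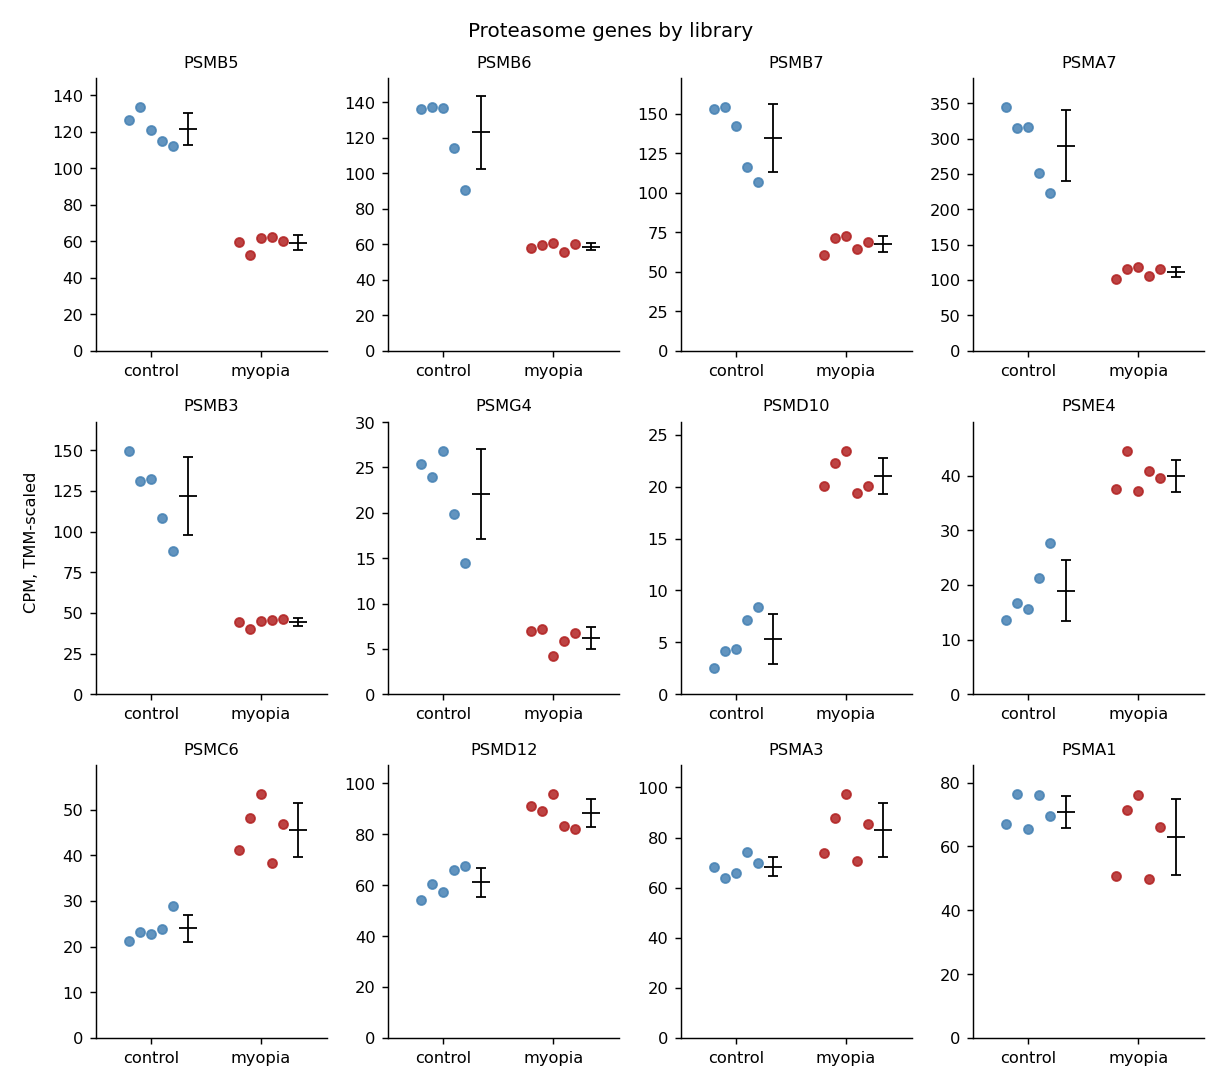
TMM-scaled CPM (vertical axes, from 0) of 12 genes, 1 panel each; points are libraries 1 to 5 of each group from left to right, and the bar beside them is the mean ± SD. PSMB5, PSMB6, PSMB7, PSMA7, PSMB3 and PSMG4 are lower and PSMD10, PSME4, PSMC6 and PSMD12 higher in the 5 myopia libraries than in the 5 control libraries, whereas PSMA3 and PSMA1 overlap.

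Among the activators, the caps that open the core without ubiquitin, PSME1, PSME2 and PSME3 fell and PSME4 rose. PSME1, a subunit of the interferon-induced activator PA28, stood at 275, 288, 230.0, 201 and 184 CPM in control and 98.8, 99.2, 95.0, 95.7 and 98.1 CPM in myopia. The myopia libraries were almost level, and the fall was 2.42-fold (-1.27 ± 0.12, adjusted p = 1.16e-06). Its partner PSME2 fell from 105 ± 8.91 to 54.8 ± 5.58 CPM (-0.94 ± 0.09), and PSME3, the nuclear form, from 103 ± 13.2 to 50.2 ± 2.93 CPM (-1.04 ± 0.10). PSME4 (PA200), a very large nuclear activator linked to the degradation of acetylated histones, stood at 13.6, 16.7, 15.6, 21.3 and 27.6 CPM in control and 37.5, 44.6, 37.2, 40.9 and 39.6 CPM in myopia. No control reached the lowest myopia library, and controls 4 and 5 were the highest controls (1.07 ± 0.16, adjusted p = 5.42e-05). PSMF1 (PI31), which inhibits the core in vitro, fell from 66.9 ± 9.29 to 41.4 ± 4.18 CPM (-0.69 ± 0.11).

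The 4 PSMG genes, which encode chaperones of core assembly, fell. POMP, another factor of core assembly that is given further below, did not pass (0.10 ± 0.09). PSMG4 had the lowest fold change of the 45 genes, with 25.3, 24.0, 26.8, 19.9 and 14.5 CPM in control and 6.96, 7.16, 4.23, 5.90 and 6.77 CPM in myopia. That was a 3.56-fold fall, and the groups did not overlap (-1.83 ± 0.19, adjusted p = 2.14e-06). Its partner PSMG3 stood at 39.0, 37.8, 28.9, 22.8 and 23.0 CPM in control and 13.7, 23.1, 14.9, 14.4 and 18.2 CPM in myopia, with myopia 2 above controls 4 and 5 (-0.84 ± 0.19, adjusted p = 0.00112). PSMG1 fell from 84.1 ± 16.2 to 39.6 ± 4.63 CPM (-1.09 ± 0.13). Its partner PSMG2, at 30.7 ± 2.14 and 24.5 ± 2.82 CPM, fell less (-0.33 ± 0.10, adjusted p = 0.00914), and its direction turned with scaling by total count (0.12, adjusted p = 0.249).

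The 2 genes that share only the name stem were lower. PSME3IP1, which binds the nuclear activator, stood at 52.2, 56.3, 46.8, 46.1 and 46.7 CPM in control and 34.2, 37.3, 39.4, 33.1 and 37.1 CPM in myopia (-0.45 ± 0.09, adjusted p = 0.000397). The groups did not overlap, but the change was -0.002 with scaling by total count (adjusted p = 0.985). PSMC3IP (HOP2), a factor of meiotic recombination, had few counts, with 5.75 ± 2.28 and 2.63 ± 0.636 CPM and overlapping groups (-1.12 ± 0.29, adjusted p = 0.00313). With total count it missed the threshold (-0.64, adjusted p = 0.0503).

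Some of these proteins work in fixed pairs or replace one another, and the ratio of 2 genes within a library needs no scaling. For 6 such pairs, chosen by their known partnership after the counts were seen, the log2 ratio was compared between groups with a two-sided exact permutation test of the 10 libraries (smallest p possible 0.00794), adjusted over the 6. The immunoproteasome subunits PSMB8, PSMB9 and PSMB10 can replace PSMB5, PSMB6 and PSMB7, for example when interferon acts on a cell. PSMB8 stood at 103, 109, 75.2, 79.9 and 67.2 CPM in control and 36.2, 35.1, 31.2, 25.8 and 34.1 CPM in myopia, PSMB9 at 125, 124, 92.8, 86.5 and 75.3 and 39.8, 38.6, 30.7, 27.2 and 26.2 CPM, and PSMB10 at 74.1, 76.6, 70.3, 49.0 and 46.5 and 25.3, 24.9, 25.3, 21.0 and 28.4 CPM. None of the 3 overlapped between the groups, and their log2 changes were -1.42 ± 0.14, -1.63 ± 0.17 and -1.34 ± 0.15 (SE). PSMB10, PSMB9 and PSMB8 thus fell further than the subunits they replace, by the tests that follow.

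The ratio of PSMB10 to PSMB7 counts was 0.485, 0.497, 0.494, 0.421 and 0.434 in control libraries 1 to 5 and 0.419, 0.348, 0.348, 0.326 and 0.411 in myopia. These ranges did not overlap (log2 difference -0.34, exact permutation adjusted p = 0.0159). The ratio of PSMB9 to PSMB6 went from 0.819 ± 0.101 to 0.555 ± 0.109 (mean ± SD, n = 5; -0.57, exact permutation adjusted p = 0.0238). That of PSMB8 to PSMB5 went from 0.711 ± 0.104 to 0.553 ± 0.098 (-0.37, exact permutation adjusted p = 0.0476). The call on PSMB8 to PSMB5 ended without any 1 of control 1, 2 and 4 and myopia 1, 3, 4 and 5, with exact permutation adjusted p from 0.0556 to 0.103 and differences from -0.41 to -0.27. Without control 2 alone, those for PSMB9 to PSMB6 (-0.54) and PSMB10 to PSMB7 (-0.31) ended too (exact permutation adjusted p = 0.0571 for both).

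Partner genes of the same heteromer also fell unequally. The ratio of PSMG3 to PSMG4 was 1.54, 1.58, 1.08, 1.15 and 1.59 in control and 1.97, 3.22, 3.53, 2.44 and 2.68 in myopia (log2 difference 0.99, exact permutation adjusted p = 0.0159). Each myopia library lay above each control. The ratio of PSMG1 to PSMG2 was 3.18, 2.90, 2.87, 2.55 and 2.13 in control and 1.70, 1.57, 1.48, 1.63 and 1.74 in myopia (-0.74, exact permutation adjusted p = 0.0159), again without overlap. PSME1 to PSME2 went from 2.22 ± 0.283 to 1.79 ± 0.165 with overlapping libraries (-0.31, exact permutation adjusted p = 0.0286). That call ended without control 2, myopia 3 or myopia 5, with differences of -0.25, -0.30 and -0.29 (exact permutation adjusted p = 0.0571 in each case).

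**Figure D4:**
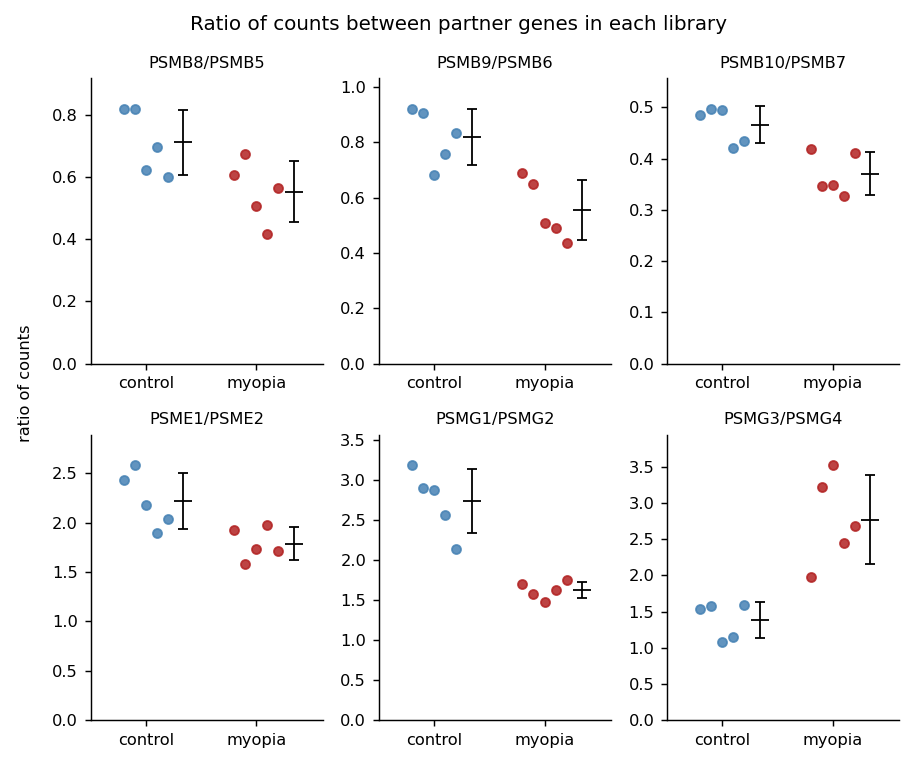
Ratio of counts between 2 genes in the same library (vertical axes, from 0) for 6 partner pairs; points are libraries 1 to 5 of each group from left to right and bars are mean ± SD. PSMB10/PSMB7 and PSMG1/PSMG2 are lower, and PSMG3/PSMG4 higher, in all 5 myopia libraries than in all 5 control libraries.

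Other genes of the pathway moved in both directions; whether their split differs from that of the members was not tested. Of 12 genes of proteasome-bound or assembly proteins with other names, 4 rose and 4 fell (median 0.004); with scaling by total count 8 rose and 1 fell (median 0.45). POMP, the maturation factor of the core, stood at 64.7, 71.3, 69.2, 66.8 and 68.9 CPM in control and 67.0, 75.9, 83.8, 63.6 and 75.5 CPM in myopia. Its groups overlapped and it did not pass (0.10 ± 0.09, adjusted p = 0.308), though it passed as higher with scaling by total count (0.54, adjusted p = 0.000196). ADRM1, a ubiquitin receptor of the base, stood at 82.4, 79.7, 79.7, 63.5 and 58.4 CPM in control and 33.1, 39.0, 40.6, 37.8 and 38.3 CPM in myopia, without overlap (-0.95 ± 0.11, adjusted p = 5.39e-06). ECPAS, a scaffold that binds the proteasome, ZFAND5, an activator, and UCHL5, a deubiquitinase docked on ADRM1, rose, with log2 changes of 0.54 ± 0.07, 0.63 ± 0.10 and 0.54 ± 0.12 (SE).

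NFE2L1, the transcription factor that raises proteasome genes when the proteasome is impaired, fell, and its relative NFE2L2, which responds to oxidative stress, rose. NFE2L1 stood at 267, 229, 265, 255 and 231 CPM in control and 162, 148, 139.7, 155 and 138 CPM in myopia, without overlap (-0.75 ± 0.09, adjusted p = 4.87e-06). NFE2L2 stood at 31.1, 34.1, 37.4, 38.6 and 41.5 CPM in control and 70.6, 64.2, 65.2, 68.1 and 61.6 CPM in myopia, also without overlap (0.85 ± 0.09, adjusted p = 2.78e-06). Of the 6 tested genes of this control circuit, 2 rose and 2 fell, and 4 rose and 2 fell with scaling by total count. NGLY1, which removes sugars from NFE2L1 on its way to the nucleus, rose by 0.75 ± 0.11, and MAFF, a small partner of both factors, fell (-1.15 ± 0.18).

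Upstream of the proteasome, UBA1, the main ubiquitin-activating enzyme, and UBB, a polyubiquitin gene, fell (-0.55 ± 0.08 and -1.21 ± 0.16), while the other activating enzyme UBA6 rose by 1.45 ± 0.11 on the log2 scale. UBA1 did not pass with scaling by total count (-0.10, adjusted p = 0.216). Shuttle and segregase genes split into 4 higher and 4 lower of 10 (median -0.02), and into 6 higher and 1 lower with total count (median 0.42). RAD23B, which carries ubiquitinated proteins to the proteasome, rose by 0.49 ± 0.12. UBQLN1, another shuttle, rose by 0.79 ± 0.10, and VCP, which pulls proteins out of complexes and membranes, fell (-0.46 ± 0.08), a change of -0.01 with total count (adjusted p = 0.906). The COP9 signalosome, built on the plan of the lid, had 6 of 9 genes lower and COPS2 higher, with a median of -0.56. The cytosolic chaperonin, which folds actin and tubulin, had 3 of 8 lower and 2 higher, with a median of 0.03. With total count these complexes had 3 lower and 3 higher (median -0.10) and 3 lower and 5 higher (median 0.48).

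Control libraries 4 and 5 stood apart from controls 1 to 3 for many of these genes, on the side of the myopia libraries. For 29 of the 34 members that fell, both lay below every one of controls 1 to 3, and for each of the 7 that rose both lay above them. Over all genes tested the same held for 61.2% of those called lower and 55.0% of those called higher. Leaving both out, 35 members were called lower and 7 higher and the members' median was -0.73, so the member counts were as large without them as with them. The labels name no batch.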

How the data were processed

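RNA-seq libraries of scleral tissue from 10 eyes (5 control, 5 myopia) were made from total RNA with a SMARTer mRNA kit, per the labels' protocols. The authors deposited raw counts of reads per gene symbol, 1 column per library. For aligner, counter, annotation and strandedness: not given in the sources used here. Overlapping, antisense or near-identical genes, such as processed pseudogenes, may therefore share reads. The notes on processing from the submitters list GRCm38 and mm10, both mouse builds, without a role. No coordinate, length or sequence is given for that reason.

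Of 18079 rows, 437 without a symbol held 0.751% to 1.69% of a library's counts and were left out. Rows were matched ignoring case, and each was tested as its own gene; symbols are printed in capitals. With filterByExpr (minimum count 10, minimum total 15), 14683 genes were tested and 2959 were not. The test was edgeR 4.0.16 in R 4.3.3 (TMM factors, robust glmQLFit, glmQLFTest, group as the factor), Benjamini-Hochberg adjusted across the tested genes, with a threshold of 0.05. The common biological coefficient of variation was 0.204. Each standard error is the log2 fold change over the root of the F statistic. The function was tested on simulated counts. Between replicates, chi-square over its degrees of freedom was 16.7 to 108, so none was a copy.

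The members, lists and settings were chosen with earlier results of these data known. Values in every library are given for the catalytic subunits, the gene of smallest p in each role, the 4 highest and 4 lowest fold changes, each gene that rose, and PSMB8, PSMB9, PSMB10, POMP, ADRM1, NFE2L1 and NFE2L2. PSMA8 and DDI2 were not analysed here. Alternatives were RLE, upper-quartile and total-count scaling, 2 other filters, DESeq2 1.42.0, limma-voom (limma 3.58.1), a replicate block, summed rows, and leaving out libraries.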

Additional observations from a re-analysis of the deposited data

Results flagged for a closer look

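In 90 checks (45 genes in 2 groups), 2 libraries lay further from the other 4 than Dixon's 95% limit allows; chance gives about 1 in 20. PSMB3 in myopia 2 stood at 40.0 CPM, with the other myopia libraries between 44.7 and 46.3 CPM. PSMB5 in myopia 2 stood at 52.2 CPM, with the others between 59.6 and 62.1 CPM. Both values lie away from the control libraries, and both genes were called lower without myopia 2.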

How the results depend on the processing

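With scaling by total count, 22 of 45 members were called lower and 11 higher, 2751 of all 14683 genes (18.7%) were called lower and 7633 (52%) higher, and the median log2 fold change of the members was -0.24. By role the medians were then 0.27 (alpha ring), -0.58 (catalytic beta), -0.55 (other beta), -0.15 (ATPase ring), -0.31 (other base), 0.16 (lid), 1.19 (base chaperones), -0.49 (activators and inhibitor), -0.50 (core chaperones) and -0.32 (the 2 name matches). PSMA1, PSMA4, PSMD11, PSMD13, PSMD7 and PSMG2 changed sign, to 0.268, 0.294, 0.347, 0.0916, 0.231 and 0.123. The shift of 0.45 in the median of all genes is set by the scaling itself, and the files do not say which scaling fits the RNA content of the tissue. With upper-quartile factors the lid median was -0.22. Leaving out 1 library at a time gave 33 to 34 members lower, 6 to 7 higher and a member median between -0.75 and -0.63. Same-numbered libraries of the groups did not vary together (correlations from -0.129 to 0.013, and 0 of 5 control libraries correlated best with their own number). These 5 correlations showed no pairing by number, but so few cannot settle whether one exists. With a replicate block 33 members were lower and 6 higher, and PSMA3 (0.27, adjusted p = 0.0549) and PSMD7 (-0.22, adjusted p = 0.053) missed the threshold. RLE factors, DESeq2, limma-voom, both other filters and summed rows gave 34 lower and 7 higher. Without control libraries 4 and 5, the ratios of PSMB8 to PSMB5, PSMB9 to PSMB6 and PSMB10 to PSMB7 were -0.45, -0.60 and -0.42 on the log2 scale (exact permutation adjusted p = 0.0714, 0.0643 and 0.0536, with fewer libraries). Counts were few for PSMD10 in control (63 to 261 per library) and for PSMC3IP (72 to 216), so these values carry more counting error than those of genes with more counts, and PSMB11 had 0.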
